A study of Mus musculus with 15 samples.

Results

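Cd200 encodes CD200, a cell-surface glycoprotein of the immunoglobulin superfamily. It is described here in mouse prostate epithelial cells grown as organoids, as 1 gene of 21886 in a table of RPKM (reads per kilobase of transcript, scaled to the library's total) and 1 of 14301 in a table of read counts. The gene was chosen by name for its level in the 6 genotype groups, with earlier results of these data known. Its levels and their differences are therefore given as a description unless a test is named.

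The RNA series held 12 libraries, 2 in each group, all from C57BL/6 mice. A set of 4 groups came from 3-month-old mice and shared a further engineered alteration, which the control carried too and which is not named here. On that background the control had no other deletion, the Setd2 null group was Setd2PC-/-, the Ezh2 null group was Ezh2PC-/-, and the double null group was Setd2PC-/-;Ezh2PC-/-. The other pair of groups came from 2-month-old mice, which differed from the first 4 groups in that background as well as in age, and carried wild-type Ezh2 or Ezh2K735R, here called Ezh2 K735R. What drives the deletion marked PC is not given in the labels, and no group without the background alteration was analysed here. In the first 4 groups, each library was a pool of RNA from 3 biological replicates. The labels give no pool size for the 2-month groups. The organoids held epithelium with both luminal and basal markers, all 10 of each list being present in both tables. P-values measure the spread between these libraries, which may be technical. In bulk RNA, a change in how many cells express a gene cannot be told apart from a change in RNA per cell.

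CD200 has a short cytoplasmic tail and acts by binding the receptor CD200R1, which is found mainly on myeloid cells. The receptor recruits the adaptors DOK1 and DOK2 and the Ras GTPase-activating protein RASA1, and this dampens myeloid activation. CD200 is also a marker of hair follicle stem cells, and many tumours carry it. SETD2 trimethylates lysine 36 of histone H3, and EZH2 is the catalytic subunit of the complex that methylates lysine 27 of histone H3. In the K735R form of EZH2, a lysine is replaced by arginine.

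In mm10, Cd200 (Entrez 17470) is transcribed from the minus strand, and the deposited table places it on chromosome 16 between 45382111 and 45409061. The 250 bases before its RefSeq transcript start, chr16:45409054-45409303 on the minus strand of GRCm38.p6, are shown because they are the nearest regulatory sequence of the gene whose level the results turn on. The capitals mark a GC box, GGGCGG, found 34 to 29 bases before the start.
Cd200 promoter: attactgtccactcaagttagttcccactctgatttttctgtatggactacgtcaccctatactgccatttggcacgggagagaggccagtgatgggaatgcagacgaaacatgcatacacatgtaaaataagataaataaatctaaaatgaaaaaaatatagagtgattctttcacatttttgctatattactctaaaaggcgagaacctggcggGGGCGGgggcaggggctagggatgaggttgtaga

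The GC box was the only 1 of 5 motifs found on either strand, and 32.7% of 32851 mouse promoter windows of this length hold it. TATAAA (12.4% of windows), an NF-kappaB motif (3 G, 5 of any base and 2 C, 45.8%), TTCNNNGAA (7.02%) and TTNNGNAA (36.8%) were not in the Cd200 window. It held 6 CpG dinucleotides, the same as the median of all windows, and 50.4% of windows held at least as many. A match or its absence describes these letters alone.

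The level of Cd200 was low in 3 of the 4 groups of 3-month-old mice and high in the fourth. In the control it was 1.01 and 3.49 RPKM, from 73 and 253 reads recovered from the RPKM values. In the Setd2 null group it was 43.6 and 54.7 RPKM, from 3422 and 4641 reads. The Ezh2 null libraries read 3.02 and 2.89 RPKM, from 399 and 327 reads. The double null libraries read 3.23 and 2.57 RPKM, from 382 and 310 reads. Both Setd2 null libraries lay above all 6 others, while the control, Ezh2 null and double null libraries overlapped.

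The 2 control libraries differed from each other by 3.45-fold. Their 95% exact Poisson intervals, 0.794 to 1.27 and 3.08 to 3.95 RPKM, did not overlap and cover counting error only. The corresponding ratio was 1.25 for Setd2 null, 1.04 for Ezh2 null and 1.26 for double null. The wide spread of the control therefore bears on every fold against it.

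The mean was 2.25 ± 1.75 RPKM for the control, 49.1 ± 7.84 for Setd2 null, 2.95 ± 0.0898 for Ezh2 null and 2.90 ± 0.471 for double null (SD, n = 2). Within its library, Cd200 exceeded 50.4% and 59.9% of listed genes in control, 93.3% and 94.9% in Setd2 null and 55.5% to 56.6% in the 4 libraries with Ezh2 deleted. Cd200 thus stood near the middle of the listed genes in 6 libraries and near their top in both Setd2 null libraries. The listed genes include 4001 at 0 in every RPKM library, so its place among detected genes was lower. In the first control library 15083 genes were above 0, and 10858 of them exceeded Cd200. In the second, 8775 of 15041 did.

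**Figure D1:**
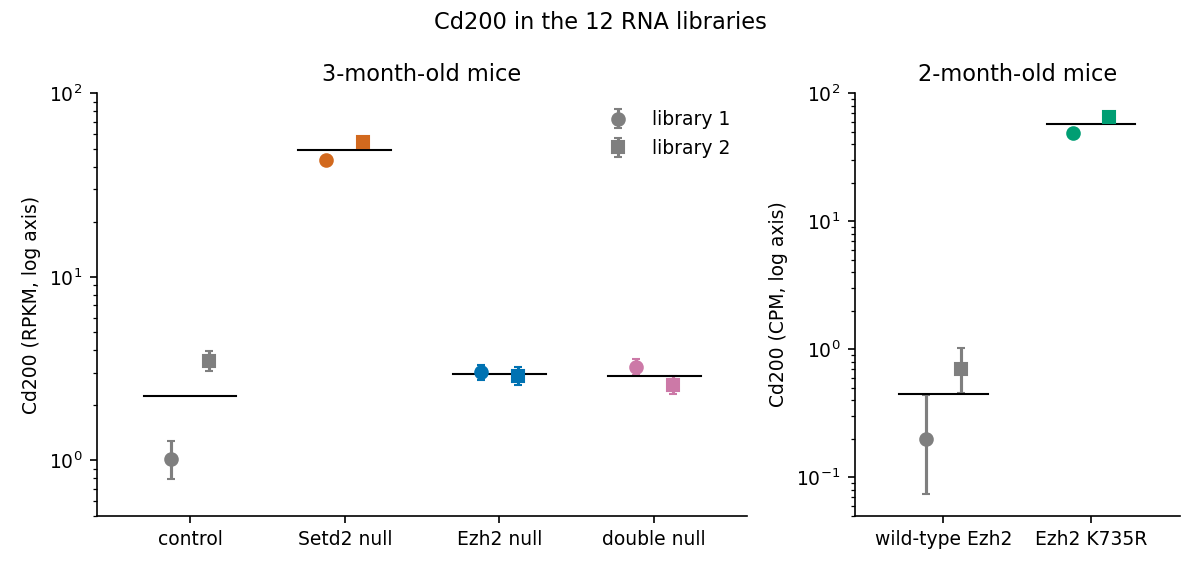
Cd200 in each of the 12 libraries, on log axes, with RPKM for the 4 groups from 3-month-old mice on the left and counts scaled to library size (CPM) for the 2 groups from 2-month-old mice on the right. Points are libraries with 95% Poisson intervals and lines are group means. The Setd2 null libraries sit at 43.6 and 54.7 RPKM and the Ezh2 K735R libraries at 49.0 and 65.7 CPM, above all other libraries of their panel.

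Between Setd2 null and control the ratio of means was 21.8, and the lower Setd2 null library was 12.5-fold above the higher control library. As a difference of log2(RPKM + 1), in which low genes appear to change less than they do, this was 4.05 ± 0.33 (SE, limma fit). It was the highest of the 11338 genes averaging 1 RPKM or more, the next being 2.23 for the predicted gene LOC108169093. Without the first control library the difference was 3.47, and without the second it was 4.63. The threshold of called genes used below is a Benjamini-Hochberg adjusted p of 0.05 over all genes tested in limma, which 1.07% of genes passed in this comparison (0.379% higher, 0.688% lower). That percentage is the background only, since this contrast was used to choose Cd200.

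Deletion of Ezh2 alone went with a Cd200 level within the spread of the control, and deletion of Ezh2 together with Setd2 also went with a low level. The log2 difference of Ezh2 null from control was 0.39 ± 0.33 (SE), and leaving out the first control library turned its sign, to -0.18. Double null lay 17.0-fold below Setd2 null by the ratio of means, with a log2 difference of -3.68 ± 0.33, the 31st lowest of 11338 genes. The lower Setd2 null library was 13.5-fold above the higher double null library. In the comparisons with Ezh2 deletion, 56.6% of genes were called against control (36.1% higher, 20.5% lower) and 55.0% in double null against Setd2 null (35.6% higher, 19.4% lower). Rank and fold place Cd200 in those backgrounds, and no test of Cd200 is drawn from them because the libraries are those it was chosen on.

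The double null and Ezh2 null libraries overlapped in Cd200. The fitted log2 difference was -0.03 with a 95% interval of -0.80 to 0.75 (limma, 2 libraries a group). Of all genes, 6.49% were called in this comparison (3.79% higher, 2.70% lower). The interval leaves room for a difference of up to about the size of its bounds, and it is a description because Cd200 was proposed with these values known. The effect of Setd2 deletion on Cd200 was -0.03 where Ezh2 was deleted and 4.05 where it was not, a difference of -4.08 ± 0.47 (SE), given with no test.

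In the 2-month-old groups, Cd200 was near 0 with wild-type Ezh2 and high with Ezh2 K735R. The 2 wild-type libraries had 6 and 26 counts of totals of 28831228 and 37482322, which is 0.200 and 0.700 CPM with TMM-scaled library sizes. The 2 Ezh2 K735R libraries had 1463 and 1898 counts, which is 49.0 and 65.7 CPM. Each Ezh2 K735R library lay above both wild-type libraries, the lower 70.0-fold above the higher wild-type library.

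The means were 0.450 ± 0.354 CPM with wild-type Ezh2 and 57.4 ± 11.8 CPM with Ezh2 K735R (SD, n = 2), a ratio of 127. The fitted log2 fold change was 6.92 ± 0.50 (SE, edgeR), with a 95% interval of 5.61 to 8.24. Cd200 had rank 3 from the highest of 13203 genes, behind Gm40847 and LOC102637839, predicted genes with 0 counts in both wild-type libraries. Divided by the 2379 bases recovered as the gene's length, the Ezh2 K735R levels were 20.6 and 27.6 CPM per kilobase. The Setd2 null values of 43.6 and 54.7 RPKM come from a table that was normalised separately.

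This difference did not pass the threshold in edgeR's quasi-likelihood test, with an adjusted p of 0.188 and an unadjusted p of 6.22e-05. Only 0.00757% of genes passed it, which was Rpl29 alone (lower, log2 -3.17, adjusted p 0.0288), while 1220 genes had an unadjusted p under 0.05. DESeq2 called 285 genes and gave Cd200 an adjusted p of 5.09e-58. Of 13203 genes, 10.7% were at least 2-fold apart between the 2 wild-type libraries and 4.39% between the 2 Ezh2 K735R libraries. In the RPKM table, the share of 11338 genes ran from 0.106% in control to 1.56% in double null. The tables differ in scale and gene filter, so the shares of one cannot be compared in size with those of the other. Over the alternatives run, the log2 fold change of Cd200 was 6.347 to 8.145. Cd200 was chosen for its level in all 6 groups, with these 4 libraries included and their values known. None of these p-values is therefore independent support.

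Cd200 was among the genes that were higher both in Setd2 null and in Ezh2 K735R, 2 comparisons with no library in common. Genes at least 2-fold higher with no overlap of libraries numbered 26 in Setd2 null (0.229% of those tested) and 383 in Ezh2 K735R (2.90%). Of the 11177 genes tested in both, 26 and 205 met this rule and 19 met it in both, 73.1% of the Setd2 null list and 9.27% of the Ezh2 K735R list. In the other direction, 28 genes (0.247%) and 313 genes (2.37%) met it in all. Of those tested in both comparisons, 27 and 113 met it and 10 are on both lists, 37.0% and 8.85% of them.

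The other 18 genes in the shared list, named after their values were seen, hold genes of several roles. Ivl (a cornified envelope protein), Prr9, Nccrp1, Tmprss11g, Clca2, Ppp1r14c and Gm8210 are among them, as are Car12 (a carbonic anhydrase), Slc39a2 (a zinc transporter), Upp1 (uridine phosphorylase), Mmp13 (a collagenase) and Hmga1 (an architectural chromatin protein). Oasl1, Ifit3b, Ifi205 and Mnda are interferon-inducible genes and H2-Q7 is a class I histocompatibility gene. Ifi205, Mnda, H2-Q7, Ifit3b, Hmga1 and Gm8210 have close copies, and how shared reads were divided between copies is not given in the sources used here. RefSeq lists Gm8210 as a pseudogene with Rpl29, a ribosomal protein gene, among its synonyms. Gm8210 read 10.4 and 11.5 RPKM in the control libraries and 35.0 and 21.6 in those of Setd2 null, while Rpl29 read 104 and 89.4 in the former and 14.9 and 10.4 in the latter. In the count table Gm8210 read 12.6 and 8.40 CPM in the wild-type Ezh2 libraries and 26.5 and 23.2 in those of Ezh2 K735R, while Rpl29 read 226 and 195 in the former and 22.2 and 24.7 in the latter. The values of both genes, and the edgeR call of Rpl29, are uncertain because the division of reads between them is not known.

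Dmtn, an actin-binding protein, had a pattern like that of Cd200. It read 0.742 and 0.972 RPKM in the control libraries, 3.47 and 4.42 in those of Setd2 null, 0.356 and 0.252 in those of Ezh2 null and 0.267 and 0.325 in those of double null. In the count table it was 0.701 and 1.91 CPM with wild-type Ezh2 and 16.2 and 22.4 with Ezh2 K735R. Both Setd2 null and both Ezh2 K735R libraries stood above all others of their table.

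Not all shared genes were low where Ezh2 was deleted. Of the 18, 10 had both double null libraries below both Setd2 null libraries, 5 had them above and 3 overlapped. In double null against Setd2 null, 19.4% of all genes tested were called lower and 35.6% higher by limma. The share of all genes without overlap of libraries is not given here, so these counts describe the named genes alone. Mmp13 was 68.9 and 68.3 RPKM in Setd2 null and 0.0527 and 0.0663 in double null, below its control of 27.2 and 26.1. Car12 was 5.58 and 6.68 RPKM in Setd2 null and 12.8 and 12.9 in double null. Ivl was 23.9 and 14.8 RPKM in Setd2 null and 52.6 and 46.2 in double null. Of the 10 that were below, 8 were also below both control libraries, whereas Cd200, Oasl1 and Hmga1 overlapped the control. The 18 genes were picked for high Setd2 null values, which favours lower values in double null. The Setd2 null libraries enter both comparisons, so these counts are a description.

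**Figure D2:**
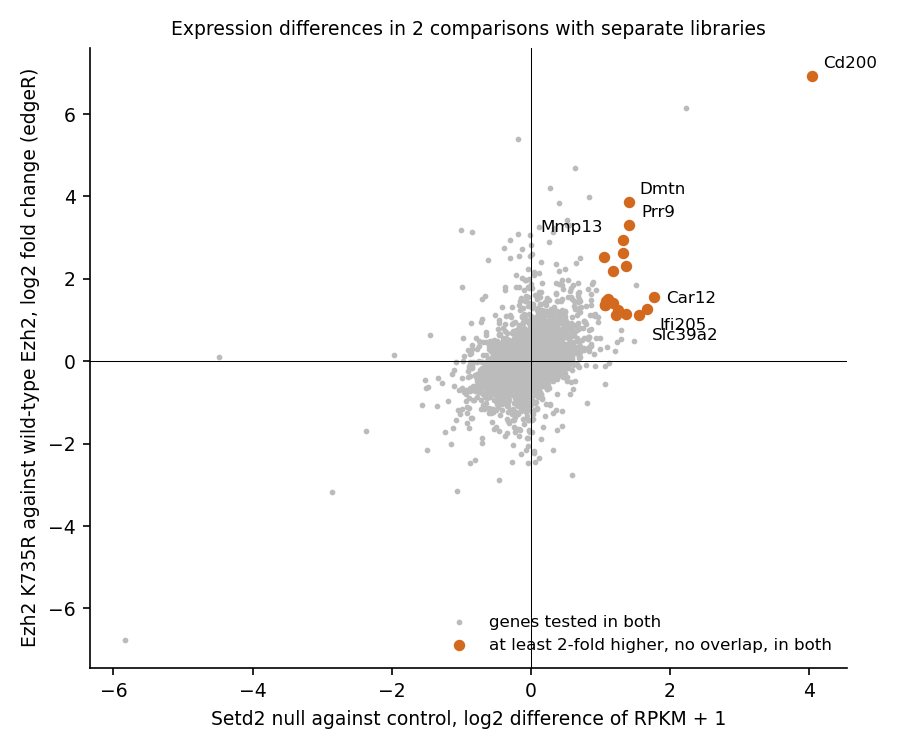
Each point is 1 of 11177 genes, with the log2 difference of Setd2 null from control (RPKM + 1) on the horizontal axis and the edgeR log2 fold change of Ezh2 K735R from wild-type Ezh2 on the vertical axis. The 19 genes at least 2-fold higher with no overlap of libraries in both are orange, and Cd200 is at 4.05 and 6.92, apart from the others.

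Genes of the CD200 receptor family were read where listed. Cd200r2 and Cd200r3 are in both tables, while Cd200r1 and Cd200r4 are not in the count table and were not read there. Cd200r1, the signalling receptor, was at most 0.0174 RPKM and Cd200r4 at most 0.0323, with both at 0 in most libraries. Cd200r2 read 1.24 and 0.507 RPKM in the control libraries, 0.0866 and 0.192 in those of Setd2 null, 0.524 and 0.384 in those of Ezh2 null and 0.886 and 0.585 in those of double null. Cd200r3 read 0.847 and 0.756 RPKM in the control libraries, 0.504 and 0.655 in those of Setd2 null, 0.607 and 0.537 in those of Ezh2 null and 0.221 and 0.171 in those of double null. None reached a mean of 1 RPKM, so none was tested there. In the count table, Cd200r2 read 0.8005 and 0.8616 CPM in the wild-type Ezh2 libraries and 0.1005 and 0.9005 in those of Ezh2 K735R. Cd200r3 read 5.70 and 10.8 CPM in the wild-type Ezh2 libraries, from 171 and 402 counts, and 7.63 and 3.39 in those of Ezh2 K735R, from 228 and 98 counts. Both genes overlapped between the groups and neither passed, with adjusted p-values of 0.866 and 0.777 in edgeR. In edgeR on recovered reads, which has a lower filter, Cd200r3 was called lower in double null than in Ezh2 null.

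Of the 6 genes listed for signalling below the receptor, 3 were tested in the RPKM table: Dok1, Rasa1 and the adaptor Nck1. Dok2, Inpp5d (the lipid phosphatase SHIP1) and Tyrobp (a myeloid adaptor) lay at or under 0.333 RPKM in every library. Dok1 read 35.9 and 35.9 RPKM in the control libraries, 38.4 and 47.7 in those of Setd2 null, 13.2 and 14.8 in those of Ezh2 null and 7.32 and 10.1 in those of double null. Its libraries with Ezh2 deleted were all below those without. None of the 3 passed in Setd2 null against control, where 1.07% of all genes passed, with 0 at an unadjusted p under 0.05 and 0 called by edgeR on recovered reads. Dok1 (log2 -1.30 ± 0.16 SE, adjusted p 0.000133) and Rasa1 (-0.79 ± 0.12, adjusted p 0.000502) fell in Ezh2 null against control, where 20.5% of all genes were called lower. All 3 fell in double null against Setd2 null, where 19.4% of all genes were called lower. The call of Nck1 (-0.36, adjusted p 0.0244) was lost in 4 alternatives. The median log2 difference of the 3 genes was -0.79 in Ezh2 null, with 0.18 over all genes tested.

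Genes of 5 factors reported to act on Cd200 were read in the 2 comparisons where Cd200 was high, in which 1.07% and 0.00757% of all genes were called. Of Trp53 (p53), Cebpb, Irf1, Nfkb1 and Rela, 0 of 5 passed in Setd2 null against control, with 0 at an unadjusted p under 0.05, and edgeR on recovered reads called 0 as well. In Ezh2 K735R against wild-type Ezh2, 0 of 5 passed edgeR, with 0 at an unadjusted p under 0.05, and DESeq2 called 0. Irf1, an interferon regulatory factor, fell in Ezh2 null against control (log2 -0.96, adjusted p 0.000412) and in double null against Setd2 null (-1.25, adjusted p 8.45e-05). Trp53 rose in both comparisons (0.67 and 0.52, adjusted p 0.00248 and 0.0102), and the second call was lost in 3 alternatives. By library, Trp53 read 36.2 and 40.5 RPKM in the control libraries and 58.9 and 64.7 in those of Ezh2 null.

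Other inhibitory immune ligands and enzymes were set beside Cd200. Of 28 listed genes, 19 were tested in the RPKM table, and in Setd2 null against control 1 rose, 0 fell and 18 did not pass, where 1.07% of all genes passed. The list median was 0.06, with -0.02 over all genes tested. The gene called was Ido1, a tryptophan-degrading enzyme, at 5.76 and 8.38 RPKM in control and 12.9 and 14.1 in Setd2 null (log2 0.87 ± 0.16 SE, adjusted p 0.0433). That call was lost in 9 of the alternatives. With Ezh2 deleted, Ido1 was low, at 0.609 and 0.546 RPKM for Ezh2 null and 1.02 and 0.912 RPKM for double null.

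In Ezh2 null against control, 4 of the 19 rose and 12 fell, with a median of -0.81, against 0.18 over all genes. Of all genes tested there, 36.1% were called higher and 20.5% lower. Lgals1 (galectin-1) read 225 and 188 RPKM in the control libraries and 16.4 and 19.1 in those of Ezh2 null (log2 -3.47 ± 0.20, adjusted p 7.35e-07). Nt5e (CD73, an adenosine-producing enzyme) read 26.2 and 28.6 RPKM in the control libraries and 3.46 and 3.18 in those of Ezh2 null (-2.71 ± 0.15, adjusted p 6.77e-07). Pvr, a ligand of TIGIT, also fell (-1.45, adjusted p 1.69e-05). In double null against Setd2 null, 3 rose and 12 fell, where 35.6% of all genes were called higher and 19.4% lower. Lgals1, Nt5e, Ido1 and Pvr were among the 12. In double null against Ezh2 null, where 6.49% of all genes were called, 1 member was called in this fit. This was Lgals3 (galectin-3, log2 0.84, adjusted p 0.00674), and that call was lost in 2 alternatives.

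In the counts, where 0.00757% of all genes passed edgeR, 23 members were tested and 0 passed, while DESeq2 called 2 as higher, Cd47 and Lgals3. In edgeR, 5 had an unadjusted p under 0.05 and the list had a median of 0.18 (-0.01 over all genes). Cd47, a ligand that restrains phagocytes, was 62.3 and 95.9 CPM with wild-type Ezh2 and 169 and 146 with Ezh2 K735R, without overlap. Cd274 (PD-L1) read 0.453 and 0.731 RPKM in the control libraries and 0.691 and 1.31 in those of Setd2 null, with overlap. It was 1.77 and 2.88 CPM with wild-type Ezh2 and 3.58 and 1.49 with Ezh2 K735R, also with overlap.

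**Figure D3:**
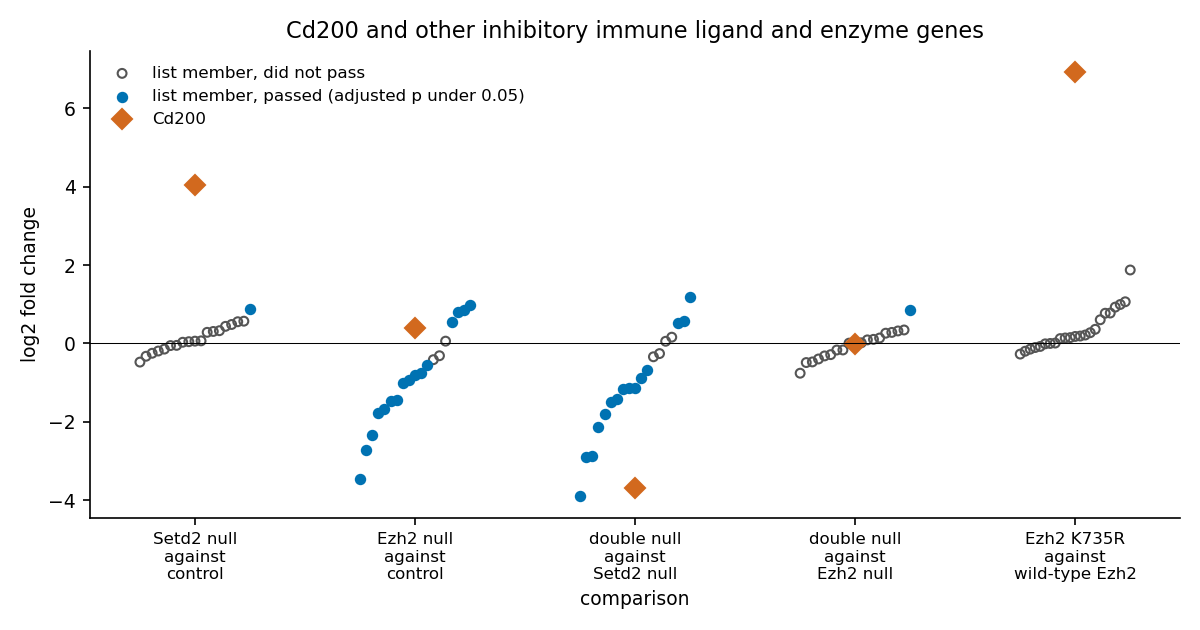
Log2 fold changes of the inhibitory immune ligand and enzyme genes in each comparison (points, filled where the adjusted p was under 0.05), with Cd200 as a diamond without any call. Cd200 lies at 4.05 and 6.92 in the first and last comparison, above every listed gene.

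Hair follicle stem cell genes, a list in which Cd200 is a known marker, were measured in the same libraries. Of 9 tested, 0 passed in Setd2 null against control, where 1.07% of all genes passed, with 3 at an unadjusted p under 0.05 and a median of -0.14 (-0.02 over all genes), and edgeR on recovered reads called 0 as well. Krt15, a keratin of basal and bulge cells, read 805 and 921 RPKM in the control libraries, 968 and 824 in those of Setd2 null, 1974 and 2386 in those of Ezh2 null and 2176 and 2412 in those of double null. It rose in both comparisons with Ezh2 deletion (log2 1.33 and 1.36, adjusted p 0.000122 and 0.000117). Cd34, a surface glycoprotein of bulge stem cells, read 32.2 and 30.6 RPKM in the control libraries, 37.3 and 32.8 in those of Setd2 null, 1.19 and 1.36 in those of Ezh2 null and 4.12 and 4.34 in those of double null. It fell in Ezh2 null against control (-3.83 ± 0.12, adjusted p 2.3e-08) and rose in double null against Ezh2 null (1.20, adjusted p 0.000324). Itga6 (integrin alpha 6) and Lgr6 (a stem cell receptor of the Lgr family) also fell in Ezh2 null against control (log2 -0.96 and -1.24).

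With Ezh2 K735R, Cd34 was 85.3 and 82.1 CPM, against 30.1 and 22.6 with wild-type Ezh2. The groups did not overlap, and the adjusted p was 0.189 in edgeR. None of the 10 tested genes of this list passed there, where 0.00757% of all genes did, with 1 at an unadjusted p under 0.05. DESeq2 called Cd34 alone, as higher.

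The genes whose levels followed Cd200 most closely over the 8 RPKM libraries differed far less in size. Among 9122 genes with at least 5 RPKM in 1 library, Pearson's r of log2(RPKM + 1) was 0.944 for Gng5 (a G protein gamma subunit), 0.935 for Heatr5a, 0.918 for Nit1 and Tmem63a and 0.912 for Cnih4. Nvl, Plpp5, Hmces, Tgoln1 and Ddx47 followed, at 0.886 to 0.898, and 5 genes in all reached 0.9. These values describe 4 groups of 2 libraries, of which 1 group stands apart, and no p is given. Gng5 read 184 and 182 RPKM in the control libraries, 231 and 219 in those of Setd2 null, 184 and 180 in those of Ezh2 null and 179 and 182 in those of double null. Its log2 difference of Setd2 null from control was 0.29, with an adjusted p of 0.38 in limma.

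Inverse patterns were as close. Fntb, a farnesyltransferase subunit, had r = -0.932, followed by Iqcc (-0.916), Mpp2 (-0.912) and Auh (-0.912). Mpp2 read 6.61 and 7.90 RPKM in the control libraries, 2.46 and 3.05 in those of Setd2 null, 5.46 and 6.75 in those of Ezh2 null and 5.15 and 6.69 in those of double null. Both Setd2 null libraries were below all 6 others. Its values are a description, since the same libraries gave its likeness to Cd200.

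**Figure D4:**
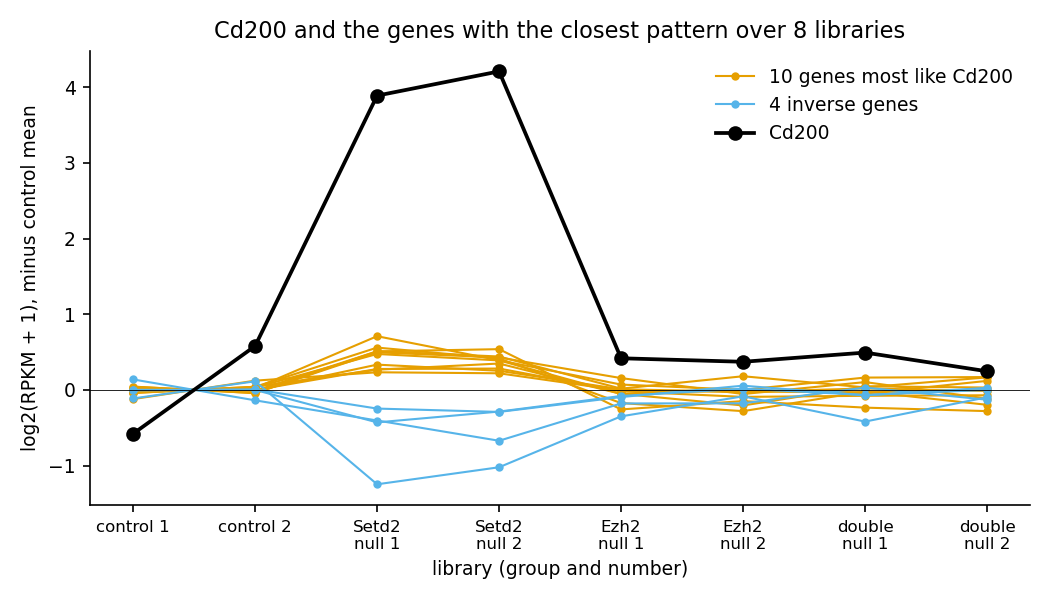
Log2(RPKM + 1) minus its control mean, in each of the 8 libraries, for Cd200 (black), the 10 genes most like it (orange) and 4 inverse genes, Fntb, Iqcc, Mpp2 and Auh (blue). Lines join libraries to show 1 gene and mark no order. The Setd2 null libraries stand apart for all of these genes, by a mean of 4.05 for Cd200 and 0.29 for Gng5.

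The genes around Cd200 on chromosome 16 ranged from 0 to 25.5 RPKM. Of the 5 listed genes nearest on each side, 6 of 10 stayed under 1 RPKM in every library. Low levels were common among all genes, since only 11338 of the 21886 listed averaged 1 RPKM or more. The count of 6 is therefore not read as a trait of this region. Gm609, the nearest at 2.71 kb, was at most 0.106 RPKM and at 0 in the control and Setd2 null libraries. Btla, a receptor of lymphocytes 129 kb away, was at most 0.00749 RPKM. Atg3, an autophagy gene 194 kb away, averaged 11.0 RPKM for control, 10.6 for Setd2 null, 23.7 for Ezh2 null and 24.0 for double null. Slc35a5 averaged 5.74, 4.86, 5.24 and 5.42 RPKM in the same order. BC016579 averaged 2.30, 2.91, 1.77 and 2.83 RPKM, and Ccdc80 averaged 0.448, 0.195, 2.64 and 1.76 RPKM.

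**Figure D5:**
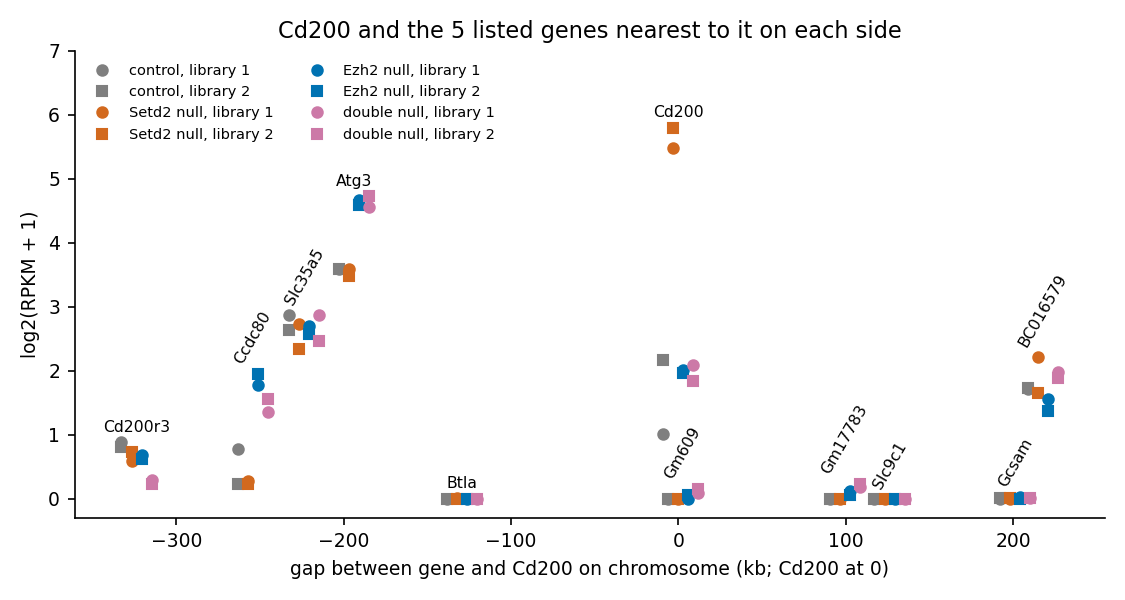
Log2(RPKM + 1) in the 8 libraries for Cd200 and the 5 listed genes nearest to it on each side, against the gap to Cd200 in kilobases. Cd200 in the Setd2 null libraries, at 43.6 and 54.7 RPKM, lies above every neighbour shown. Of the neighbours, 6 stay under 1 RPKM, a low level that many listed genes share.

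Other cells known to carry CD200 were looked for by their markers. The summed level of 10 B and T lymphocyte markers was at most 0.268 RPKM in any library, and none of these markers is in the count table. The sum of 10 endothelial markers read 8.33 and 9.49 RPKM in the control libraries and 5.64 and 9.997 in those of Setd2 null, with 9 of 10 under 1 RPKM in both libraries of each group. The sum of 11 neuronal and neuroendocrine markers read 7.62 and 9.73 RPKM in the control libraries and 3.11 and 5.39 in those of Setd2 null. The part of such cells in the level of Cd200 was not tested. In the counts, the 6 endothelial markers listed summed to 10.2 and 27.1 CPM with wild-type Ezh2 and 18.9 and 29.9 with Ezh2 K735R, with overlap. Summed stromal markers were 2.16 to 4.24 RPKM without Ezh2 deletion and 29.3 to 34.4 RPKM with it, and their part in the difference between double null and Setd2 null was not tested.

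The targeted genes were read from whole-gene values, which do not resolve a deleted exon. Setd2 read 17.0 and 16.1 RPKM in the control libraries, 8.75 and 10.3 in those of Setd2 null, 14.6 and 11.6 in those of Ezh2 null and 8.99 and 7.54 in those of double null. The 4 libraries labelled as lacking Setd2 were the 4 lowest, with an adjusted p of 0.0563 in Setd2 null against control and 0.0425 in double null against Ezh2 null (limma). Ezh2 read 19.4 and 20.9 RPKM in the control libraries, 24.2 and 20.7 in those of Setd2 null, 13.8 and 11.6 in those of Ezh2 null and 16.6 and 14.2 in those of double null. It was lower in Ezh2 null than in control (log2 -0.63, adjusted p 0.00414) and in double null than in Setd2 null (-0.52, adjusted p 0.0121), so transcript remained in all 4. Reads recovered on listed genes were 29686039 to 34880848 per library in control and Setd2 null, and 46915682 to 54203336 in Ezh2 null and double null. Depth thus went with Ezh2 deletion. In comparisons across that deletion, for Cd200 as for other genes, the part of each cannot be told apart. Counts were 28831228 to 37482322 per library in the count table.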

How the data were processed

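Cd200 and the gene lists were chosen with earlier results of these data known. The submitters' processing notes name the build mm10 and the tools Bowtie, RSEM, BWA and SICER. What made each value, with its version, strandedness and handling of shared reads, is not given in the sources used here. For the first 4 groups the authors deposited RPKM, and they deposited whole-number counts for the other pair, the unit of the counts being taken from their values. Spreadsheet dates replaced 27 and 19 gene symbols, which were named by Entrez identifier, and 21653 and 14196 identifiers matched the RefSeq table.

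RPKM were tested as log2(RPKM + 1) in limma 3.58.1 (R 4.3.3; all 4 groups in 1 fit, trended and robust moderation, mean of at least 1 RPKM). Counts were tested in edgeR 4.0.16 (TMM, filterByExpr, robust quasi-likelihood test, two-sided), and CPM use TMM-scaled library sizes. Benjamini-Hochberg adjustment ran over all genes tested, with a threshold of 0.05. RPKM values were whole multiples of 1 read within 0.01 reads for 13744 of 13748 genes (99.97%), which gave depth and gene length, and edgeR on these reads, an alternative chosen after seeing the data, called 136 genes in Setd2 null against control. The 3 chromatin samples were not analysed here, and some items that the rules and lists name are not reported here, so the list of reported regulators is given for 5 of its 6 genes. Promoter windows are from RefSeq (GRCm38.p6). Named genes were Cd200, the targeted genes, family members, up to 4 called members of each list per comparison by smallest p, the 10 most like genes, inverse genes, and 5 neighbours a side. Dmtn, Cd47, Cd274, the genes shared between comparisons and the genes ranked beside Cd200 were added after their values were seen. Alternatives were quantile and median-ratio scaling, a pseudocount of 0.1, dropping the filter, raising it to a mean of 5 RPKM or 10 counts, fitting only the groups compared, a block for the replicate number, DESeq2 1.42.0, limma on log2 CPM, no TMM factors and each library left out. The scripts were tested on simulated data.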

Additional observations from a re-analysis of the deposited data

Results flagged for a closer look

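The effect of Setd2 deletion differed with the state of Ezh2 for Cd200, for 2 members of the gene lists and for 8 of the other genes named in the report. The share of all genes that passed this term is not given here, so these numbers describe the named genes alone. For Cd200 the difference between the 2 effects was -4.08 on the log2(RPKM + 1) scale, and it is given without a test because Cd200 was chosen on these libraries. For Cd34 it was 1.05 (adjusted p 0.011, limma interaction term): Setd2 deletion went with a difference of 0.15 with Ezh2 present and of 1.20 with Ezh2 deleted. For Gas1, a growth arrest gene on the hair follicle list, it was 1.21 (adjusted p 0.0158), from -0.54 with Ezh2 present to 0.67 with Ezh2 deleted. Gas1 read 1.72 and 2.30 RPKM in the control libraries, 0.861 and 1.28 in those of Setd2 null, 0.839 and 0.725 in those of Ezh2 null and 1.71 and 1.98 in those of double null. The same term was 4.45 for Gm8210, 1.09 for Mpp2, -0.99 for Mnda, -1.22 for Rpl29, -1.27 for Ifi205, Mmp13 and Slc39a2 and -1.42 for Dmtn (adjusted p 0.000122 to 0.0419). Apart from Rpl29, these genes were named for their Setd2 null values or their likeness to Cd200, which enter this term.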

How the results depend on the processing

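Cd200 stayed higher in Setd2 null than in control in every alternative run, by 3.47 to 4.63 (log2), and lower in double null than in Setd2 null, by -4.27 to -3.52, where a pseudocount of 0.1 gave -4.04 and edgeR on recovered reads -4.27. Against control, Ezh2 null ranged from -0.18 to 0.97. In double null against Ezh2 null the value was -0.15 to 0.10, with the sign turned (0.098) without the second double null library. In Ezh2 K735R against wild-type Ezh2, Cd200 was 6.35 to 8.14 over the libraries left out. Cd200 was proposed with these values known, so the outcomes that follow are not independent support. It did not pass with limma on log2 CPM (adjusted p 0.148), nor in edgeR with no TMM factors (0.124), no filter (0.15) or a mean of at least 10 counts (0.182). It passed with DESeq2 (6.95) and in edgeR with the replicate number as a block (6.998, adjusted p 0.0432). That block raised called genes to 231 in Setd2 null against control and 4 in Ezh2 K735R; labels share numbers without stating a pairing, and deviations of same-numbered libraries correlated at 0.358 and 0.095 in these pairs of groups (0.933 between Ezh2 null and double null). In double null against Ezh2 null the block gave 1078 calls, with Lgals9, Dok1 and Tcf7l1 called lower beside Lgals3, Cd34 and Gas1, called higher.

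Genes called in Setd2 null against control were 121, and 56 with quantile normalization, 67 with no filter, 62 with a mean of at least 5 RPKM, 15 with only these groups and 24 to 132 with 1 library left out. In double null against Ezh2 null they were 736, and 465 with a mean of at least 5 RPKM, 399 with only these groups and 361 to 472 with 1 library left out. In Ezh2 K735R they were 1, and 285 with DESeq2, 2 with limma on log2 CPM and 0 to 1595 with 1 library left out (644 and 1595 without the first or second wild-type library, 0 without either Ezh2 K735R library). With quantile or median-ratio scaling the median of all genes in Ezh2 null against control went from 0.18 to 0.01 and 0.02, and the share of calls that were higher from 63.8% to 50.1% and 50.3%; in double null against Setd2 null that share went from 64.7% to 48.3% and 50.3%. Of 29 calls of list members named by the rule, 5 were lost in at least 1 alternative (Nck1, Trp53, Ido1, Lgals3 and Gas1) and 0 changed direction; causes were not tested. With 2 libraries a group, differences of Cd200 smaller than the intervals given could not be detected.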
